A study of Mus musculus with 123 samples.

Results

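Oxidative phosphorylation subunits are the nuclear-encoded proteins of the respiratory chain and ATP synthase in the inner mitochondrial membrane. They were taken as every gene whose symbol begins with Nduf followed by a, b, c, s or v and a digit, is one of the Sdh genes a to d, or begins with Uqcr, Cox followed by a digit from 4 to 8, or Atp5. This gave 84 of the 24134 genes in the table, with 37 in complex I, 4 in complex II, 8 in complex III, 18 in complex IV and 17 in complex V. No gene encoded by the mitochondrial genome is listed in the table, so the mitochondrial subunits of complexes I, III, IV and V were not analysed here.

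Complexes I to IV pass electrons from NADH and succinate to oxygen, and complexes I, III and IV pump protons while doing so. Complex V, the ATP synthase, uses the returning protons to make ATP. Sensory neurons carry long axons and depend on this pathway for ion pumping and transport, and complex II is also an enzyme of the TCA cycle.

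Hand-picked neurons of the dorsal root ganglion (DRG), which holds the cell bodies of peripheral sensory neurons, were profiled after transection of the right sciatic nerve (SNT), with neurons of the contralateral ganglia as control. All mice were adults of 2 months. The day 3 cells and the pooled libraries came from F1 mice of a CAST/Eij father and a C57BL/6 mother, females per the study's methods, and of the cells 41 SNT and 18 control cells remained after the authors removed 11 outliers. The day 7 cells came from C57BL/6 mice, with 33 SNT cells (16 female, 17 male) and 14 control cells (7 female, 7 male). The 6 pooled libraries, 3 per side at day 3, are parts of 1 lysate of many neurons per side, so their test is over technical spread. No label names an animal, and each side of a day is therefore 1 sample of cells, described without a test.

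Total counts ranged from 261351 to 1849130 in the kept cells and from 563462 to 2003817 in the pooled libraries. Atf3, a transcription factor induced by axon injury, checked the labels. In the pooled libraries it had 1551 ± 125 CPM after SNT and 12.8 ± 6.71 CPM in the control (SD, n = 3 each). CPM are counts scaled to a library total of 1e+06, and values of single genes in pooled libraries are also scaled by TMM factors, while sums of genes are not. At day 3, 30 of 41 SNT cells exceeded the highest control cell (75.7 CPM), and at day 7, 12 of 33 did (29 CPM), so most cells labelled SNT at day 7 showed no Atf3 above the control range. For the pooled libraries the column names were used. The source label calls all of them intact, and under the sample identifiers listed beside the names every pooled difference would change sign. The summed level of 5 neuron markers lay between 6130 and 17490 CPM in every kept cell. Immune markers, 8 in all, reached 3306 CPM in 1 SNT cell of day 3 and 755 CPM at day 7, against at most 63.4 CPM in control cells, and 5 erythrocyte markers reached 4670 CPM in 1 SNT cell of day 7. Their part in the results was not tested.

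The level of the subunits spans a wide range. Per kilobase of transcript, Atp5b, the catalytic beta subunit of ATP synthase, was highest of 76 members in day 3 control cells at 783 CPM per kb, followed by Cox4i1 at 723, Ndufa4 at 681 and Cox8a at 589, beside a median of 181 over the members. The lowest were Sdhc at 25.3, Atp5s at 24.1 and Atp5sl at 15.2 CPM per kb. The same 4 genes led and the same 3 closed the order in day 7 control cells, where Ndufa4 was at 1041, Cox4i1 at 987 and Atp5b at 938 CPM per kb. Only 4.07% of the Ndufa4 values were whole numbers, so its level rests largely on reads that the estimation shared among transcripts. Cell-to-cell spread was large beside the gaps at the top, since Atp5b was 1501 ± 344 CPM and Cox4i1 546 ± 149 CPM in day 3 control cells (SD over 18 cells).

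Several complex IV subunits and Ndufa4 exist as paired isoforms, of which one is known from muscle, lung, testis or low oxygen. In the 106 kept cells the ubiquitous isoform carried nearly all reads. Cox4i2 exceeded 10 CPM in 1 cell (highest 26 CPM) and Cox7a1, a muscle isoform, in 1 cell (highest 10.5 CPM). Cox6a2, Cox6b2, Cox7b2, Cox8b and Ndufa4l2 stayed at or below 6.72 CPM in every kept cell. Cox8c was listed at 0 in all 106 cells, which allows up to 0.0307 CPM over the summed counts. Cox7a2l, a supercomplex assembly factor related to Cox7a2, was expressed like a regular subunit at 159 ± 29.6 CPM in day 3 control cells.

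Subunit c, which forms the proton-carrying ring of complex V, is encoded by 3 genes whose mature proteins are the same. Their coding ends are shown, with the bases that differ among Atp5g1, Atp5g2 and Atp5g3 in capitals. Reads from this stretch can be told apart by these bases, and other reads come from the rest of the transcripts. Each run holds the last 228 coding bases, which encode the 75 residues of the mature subunit and the stop codon, on GRCm38 and from the minus strand, with Atp5g1 at chr11:96073104-96073635, Atp5g2 at chr15:102663014-102665166 and Atp5g3 at chr2:73908593-73909296, introns left out.
Atp5g1: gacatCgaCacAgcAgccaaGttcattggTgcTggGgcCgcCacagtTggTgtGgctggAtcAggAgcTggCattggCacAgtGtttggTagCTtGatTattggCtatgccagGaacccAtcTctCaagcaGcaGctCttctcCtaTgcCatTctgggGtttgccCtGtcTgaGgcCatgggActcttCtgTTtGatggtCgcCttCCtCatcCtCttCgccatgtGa
Atp5g2: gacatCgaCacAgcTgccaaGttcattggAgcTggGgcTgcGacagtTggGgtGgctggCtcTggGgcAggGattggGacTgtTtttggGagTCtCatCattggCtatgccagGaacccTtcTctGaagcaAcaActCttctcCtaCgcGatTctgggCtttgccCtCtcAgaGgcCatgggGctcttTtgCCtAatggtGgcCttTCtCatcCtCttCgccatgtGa
Atp5g3: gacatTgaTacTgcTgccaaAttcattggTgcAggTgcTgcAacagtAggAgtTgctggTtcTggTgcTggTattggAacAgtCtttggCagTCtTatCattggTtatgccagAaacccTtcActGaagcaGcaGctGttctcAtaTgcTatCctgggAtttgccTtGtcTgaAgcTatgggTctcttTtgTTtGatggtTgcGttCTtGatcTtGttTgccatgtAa
The genes differ at 58 of these positions. The longest run of equal bases is 21 between Atp5g1 and Atp5g2, 11 between Atp5g1 and Atp5g3 and 8 between Atp5g2 and Atp5g3. All are shorter than the 50-base reads of day 3. Over whole transcripts, 38.3% of the 50-base stretches of Atp5g2 and 9.92% of those of Atp5g1 also lie in noncoding or pseudogene transcripts, and 0% of those of Atp5g3.

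The summed level of the 84 members was similar on both sides at day 3. In day 3 cells it was 15436 ± 3795 CPM after SNT and 15293 ± 3113 CPM in the control (SD over 41 and 18 cells). The 3 control pooled libraries had 15339, 18165 and 15115 CPM and the 3 SNT libraries 14284, 15713 and 18035 CPM, so the sides overlapped. At day 7 the sum was 20479 ± 5748 CPM in SNT cells and 18439 ± 3874 CPM in control cells, and the ranges overlapped, from 13155 to 32556 CPM and from 11847 to 26122 CPM.

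**Figure D1:**
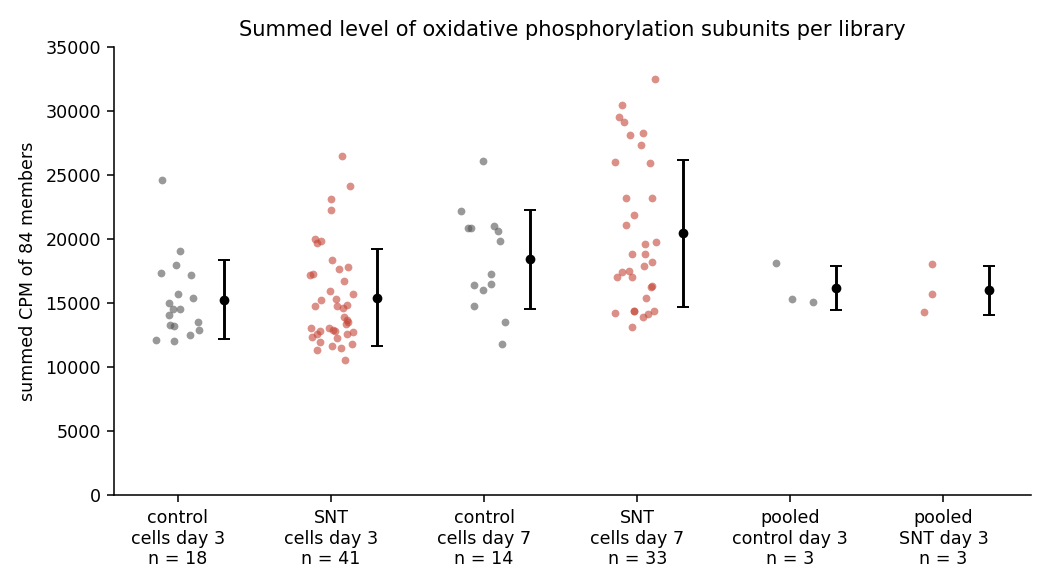
Summed CPM of the 84 members in each kept cell and pooled library (points), with the mean and SD at the right of each group. The 33 SNT cells of day 7 reach from 13155 to 32556 CPM, across the whole range of the 14 control cells except its lowest end of 11847 CPM.

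The sum rose with Nefh and fell with P2rx3 across the cells of each group, while other markers of neuron type were less even. Among the 41 SNT cells of day 3 it followed Nefh, the heavy neurofilament of large myelinated neurons, with a Spearman correlation of 0.84 and Pearson's r of 0.88 on log2(CPM + 1), and r was 0.89 without the 2 cells farthest in Nefh. The Spearman correlation with Nefh was 0.60 in the 18 control cells of day 3, 0.52 in the 33 SNT cells of day 7 and 0.50 in the 14 control cells of day 7, where r was 0.26 without the 2 farthest cells. The Spearman correlation with P2rx3, an ATP-gated channel of nonpeptidergic nociceptors, lay between -0.41 and -0.68 in the 4 groups. For other markers of large neurons it ran from 0.22 to 0.58 (Ntrk3), 0.21 to 0.61 (Pvalb) and 0.17 to 0.78 (Spp1). For Calca, of peptidergic nociceptors, it ran from -0.72 to 0.01. The Spearman correlation with Atf3 was -0.13 and 0.08 in the SNT cells of days 3 and 7. The Spearman correlation with Snap25, a presynaptic SNARE protein, lay between 0.77 and 0.85. All points share depth and total scaling within a library.

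**Figure D2:**
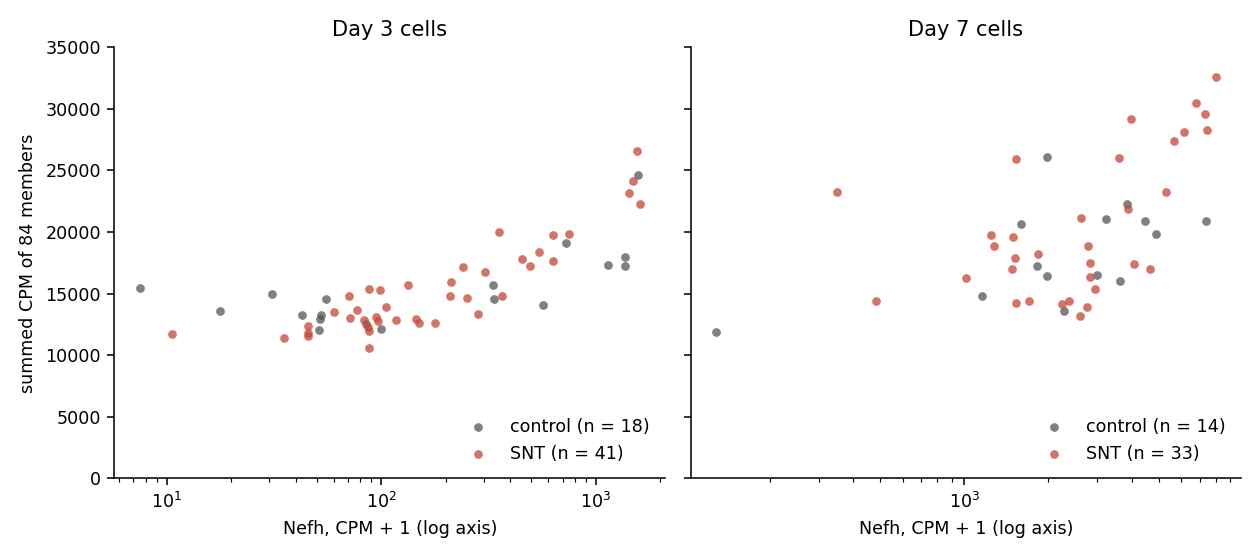
Summed CPM of the 84 members against Nefh (CPM + 1, log axis) in each kept cell of day 3 (left) and day 7 (right), SNT cells in red and control cells in gray. Cells with more Nefh have higher sums on both sides, with Spearman correlations of 0.84 in SNT cells of day 3 and 0.52 in SNT cells of day 7.

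The sums of complexes I, III, IV and V varied together from cell to cell, with Spearman correlations from 0.70 to 0.97 for their pairs over the 4 groups. The Spearman correlation of complex II with the others ran from 0.22 to 0.90, and with complex IV it was 0.22 in day 7 control cells and 0.34 in day 3 SNT cells, while in day 7 SNT cells it was 0.71.

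In the pooled libraries at day 3, 77 members were tested and 10 were called at an adjusted p below 0.05 by edgeR's quasi-likelihood test, 7 higher and 3 lower on the SNT side. Of all 13509 genes tested, 24.8% were called, 14% higher and 10.8% lower, so the members' share of 13% was below the background. Only Ndufs5 was called with a change over 2-fold, beside 16% of all genes, and 14 members had sides that did not overlap, beside 37.7% of all genes. The median log2 change was 0.04 over the members and 0.02 over all genes. By complex it was -0.09 in complex I, -0.33 in complex II, 0.00 in complex III, 0.14 in complex IV and 0.16 in complex V. Scaling by library size alone gave 3 members higher and 8 lower, beside 1507 and 2003 of all genes. The median was then -0.14 over all genes and -0.12 over the members, and complex IV turned to -0.02. Complex III, near 0, was at 0.04 after thinning to the smallest library. The number called higher was 3 without control library 1, 11 without control library 2, 3 without control library 3 and 2 without SNT library 3, and the number called lower was 0 without SNT library 1. In the same order, 1578, 1838, 1607 and 1592 of all genes were called higher, and 1127 lower in the last fit.

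Markers of neuron subtypes and of glia differed between the pooled sides. Nefh rose from 297 ± 16.2 to 675 ± 41.8 CPM (SD, n = 3, adjusted p = 2.86e-09). P2rx3 fell from 741 ± 40.1 to 315 ± 12.9 CPM (adjusted p = 5.36e-10), Mrgprd, a receptor of nonpeptidergic nociceptors, from 958 ± 61.8 to 1.13 ± 1.45 CPM (adjusted p = 4.07e-27) and Th, a marker of C-fibre mechanoreceptors, from 342 ± 74.6 to 71.7 ± 18.1 CPM (adjusted p = 7.34e-13). Of the 5 NP markers all 5 fell, of the 6 LM markers 2 rose and 2 fell, of the 4 PEP markers 2 fell, and of the 3 C-LTMR markers all 3 fell. The summed level of 10 glial markers ran from 12662 to 15400 CPM in the control libraries and from 6199 to 7015 CPM in the SNT libraries, with none of the 10 at 0. The part of either in the pooled differences was not tested. Fewer cells of a type and less RNA per cell cannot be told apart in these libraries.

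**Figure D3:**
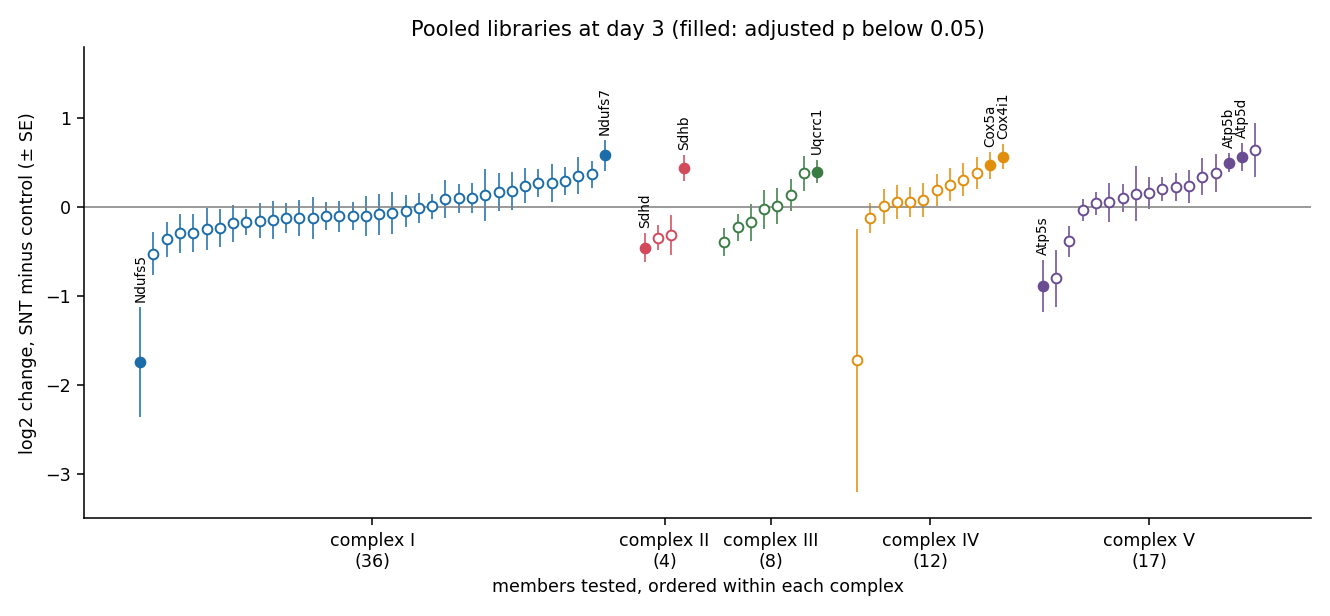
Log2 change between SNT and control pooled libraries for the 77 members tested, ordered within each complex, with SE bars and filled points for an adjusted p below 0.05. The 10 filled points are named, from Ndufs5 at -1.74 to Ndufs7 at 0.58, and most members of complex I lie below 0.

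In complex I, 36 of 37 members were tested, 1 rose and 1 fell, and the 34 others lay between -0.52 and 0.37 on the log2 scale. Ndufs7, an iron-sulfur subunit at the end of the electron path, had 142, 136 and 116 CPM in the control libraries and 180, 175 and 235 CPM in the SNT libraries. The sides did not overlap, and the log2 change was 0.58 ± 0.17 (SE), with an adjusted p of 0.00957. The call was lost without control library 3 or SNT library 3 and with library size alone. Ndufs5, an accessory subunit, had 24.7, 21.5 and 31.9 CPM on the control side and 0, 0 and 20.3 CPM on the SNT side, a log2 change of -1.74 ± 0.62 with an adjusted p of 0.0329. Leaving out 1 library at a time, the fitted log2 change ran from -1.14 to -7.67, the last without SNT library 3, where the SNT side is at 0 and the fitted value depends on the prior count. Only 2.15% of its values were whole numbers, so its reads were largely shared among transcripts by the estimation, and its adjusted p was 0.62 with DESeq2, in a range from 1.22e-08 to 0.62 over the alternatives. Its call was lost without control library 1 or 3 and without SNT library 1 or 2. The share of whole values was also low for Ndufa4 (4.07%), Cox7c (17.9%) and Ndufb2 (22.8%).

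Complex II moved in both directions. Sdhb, its iron-sulfur subunit, had 274, 321 and 256 CPM in control libraries and 324, 398 and 436 CPM in SNT libraries, a log2 change of 0.44 ± 0.15 with an adjusted p of 0.0227. Sdhd, one of the membrane anchors, had 200, 253 and 202 CPM and then 161, 170 and 150 CPM, and fell by 0.45 ± 0.16 on the log2 scale with an adjusted p of 0.0327. In both genes the sides did not overlap. The call of Sdhb was lost without control library 1 or 3 and without SNT library 2 or 3, and that of Sdhd without control library 2 and without each SNT library. Thinning to the smallest library ended both calls, and library size alone ended that of Sdhb. Sdha, the flavoprotein that oxidises succinate, was at -0.34 ± 0.14 (adjusted p = 0.0684), and Sdhc, the other anchor, at -0.31 ± 0.23 (adjusted p = 0.35).

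In complex III, Uqcrc1, a core subunit, was the called member. It had 435, 641 and 540 CPM on the control side and 704, 689 and 744 CPM on the SNT side, without overlap. The log2 change was 0.40 ± 0.13 with an adjusted p of 0.0228, and the 7 other members lay between -0.39 and 0.38. The call was lost without control library 1 or 3, without SNT library 3 and with library size alone.

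In complex IV, both called members rose. Cox4i1, the main isoform of subunit 4, had 449, 565 and 409 CPM in control libraries and 564, 715 and 840 CPM in SNT libraries, a log2 change of 0.57 ± 0.14 with an adjusted p of 0.00235. Cox5a, a subunit on the matrix side, had 277, 315 and 259 CPM and then 314, 413 and 456 CPM, a log2 change of 0.47 ± 0.15 with an adjusted p of 0.0161. For both genes the lowest SNT library lay just under the highest control library. Cox4i1 was called in each of the 6 fits that left out 1 library, and Cox5a in 2 of them, being lost without control library 1 or 3, without SNT library 2 or 3 and with library size alone.

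The isoforms that carry the reads in these neurons were not called apart from Cox4i1. Cox6b1, which faces the intermembrane space, was at 0.39 ± 0.18 (adjusted p = 0.113) and Cox6a1 at 0.31 ± 0.18 (adjusted p = 0.224). Ndufa4, first counted to complex I and now known as a complex IV subunit, was at 0.27 ± 0.16 (adjusted p = 0.22). Cox7a2 at 0.19, Cox7b at 0.08, Cox8a at 0.06 and Cox7a2l at -0.12 lay closer to 0, and Cox4i2, with at most 3.9 CPM in a library, was at -1.72 ± 1.48. In day 7 cells the ratios were 0.48 for Cox6b1, 0.41 for Ndufa4, 0.37 for Cox6a1, 0.36 for Cox7b, 0.31 for Cox7a2 and 0.15 for Cox8a. In day 3 cells the ratios were 0.22, 0.16, 0.02, 0.08, -0.12 and -0.17 for the same genes in that order.

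In complex V, Atp5b had the steadiest difference. It had 1483, 1625 and 1453 CPM in the control libraries and 2091, 2150 and 2222 CPM in the SNT libraries, a log2 change of 0.50 ± 0.11 with an adjusted p of 0.000477, and it was called in all 6 fits that left out 1 library. Atp5d, the delta subunit of the central stalk, was at 0.57 ± 0.16 with an adjusted p of 0.00595, although the sides overlapped, with 339 to 545 CPM against 270 to 376 CPM, and the call was lost without control library 1 or SNT library 3. Atp5s, a coupling factor and no classical subunit, had 58.4, 51 and 31.9 CPM and then 26.3, 26.8 and 24.5 CPM, and fell by 0.89 ± 0.29 with an adjusted p of 0.0203. That call was lost without control library 1, without SNT library 1 or 3 and with DESeq2. Atp5sl, named for its likeness to Atp5s and also called Dmac2, was at -0.80 ± 0.32 (adjusted p = 0.0644). It is no classical subunit either, and was counted in complex V by its symbol alone. The genes of subunit c were at -0.38 (Atp5g1), 0.05 (Atp5g2) and 0.16 (Atp5g3) and were not called.

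Promoters of respiratory genes often carry sites for NRF1, GABP and YY1. In 300-base windows from RefSeq, 250 bases before and 50 after the start, 69 members matched with 75 windows, of 32851 in all. The letters GCGCATGC (NRF1), on either strand, stood in 13.3% of the member windows and 2.71% of all, CCGGAAGT (ETS factors such as GABP) in 6.67% and 3.89%, and AAGATGGC (YY1) in 16% and 2.75%. The windows of 3 called members are shown, with motif letters in capitals. They lie on the plus strand of GRCm38 at chr10:80249199-80249498 for Ndufs7, chr4:140961021-140961320 for Sdhb and chr9:108936398-108936697 for Uqcrc1.
Ndufs7: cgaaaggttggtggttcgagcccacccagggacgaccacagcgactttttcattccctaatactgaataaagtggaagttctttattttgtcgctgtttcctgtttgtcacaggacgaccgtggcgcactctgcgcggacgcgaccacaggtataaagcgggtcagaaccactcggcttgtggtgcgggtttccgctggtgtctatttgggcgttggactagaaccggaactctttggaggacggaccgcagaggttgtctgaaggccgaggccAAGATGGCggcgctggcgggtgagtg
Sdhb: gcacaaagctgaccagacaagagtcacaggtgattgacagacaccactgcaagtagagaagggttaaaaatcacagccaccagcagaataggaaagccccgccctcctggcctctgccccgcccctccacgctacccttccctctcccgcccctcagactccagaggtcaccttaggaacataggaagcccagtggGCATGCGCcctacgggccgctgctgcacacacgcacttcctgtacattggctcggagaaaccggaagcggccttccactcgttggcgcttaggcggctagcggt
Uqcrc1: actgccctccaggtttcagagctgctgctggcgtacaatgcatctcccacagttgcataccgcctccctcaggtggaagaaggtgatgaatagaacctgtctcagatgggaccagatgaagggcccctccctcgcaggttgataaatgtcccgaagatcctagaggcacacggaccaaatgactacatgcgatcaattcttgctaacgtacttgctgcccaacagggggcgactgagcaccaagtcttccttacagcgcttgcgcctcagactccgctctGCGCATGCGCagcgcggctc
The Ndufs7 window holds the YY1 letters near its end, the Sdhb window the NRF1 letters in reverse, and the Uqcrc1 window a palindromic stretch that reads as the NRF1 letters on both strands. These windows were chosen for their motifs. Of the other called members, Atp5b, Atp5d, Atp5s, Cox5a, Ndufs5 and Sdhd had windows with none of the letters searched, Cox4i1 had no window, and 34.7% of all member windows held any of them, beside 8.83% of all windows. A match is a run of letters and no measured site.

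In day 3 single cells the members differed little between the sides. Of 76 members with a mean of at least 10 CPM, none exceeded a 1.5-fold ratio of mean CPM + 1 in either direction, while 10.6% of 9291 genes were over 1.5-fold higher and 14.1% over 1.5-fold lower on the SNT side. The median log2 ratio was -0.02 over the members and -0.05 over all genes, and over the members it was 0.026 with a size factor per side. Of the 76 members 32 were above 0, beside 46% of all genes. By complex the medians were -0.07 (I), -0.05 (II), -0.06 (III), 0.08 (IV) and 0.02 (V). With medians over cells complex II was at 0.02, and in cells with Nefh at or below its median over the day (132 CPM) complex II was at 0.06 and complex IV at -0.06.

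Cox5a had the highest ratio at day 3, 0.48 on the log2 scale. Its lowest, median and highest cell were at 133, 306 and 760 CPM on the SNT side and at 108, 218 and 703 CPM on the control side, so the ranges overlapped almost fully. Atp5d was highest in complex V at 0.29, Sdhb in complex II at 0.24, Uqcr10, a small subunit of complex III, at 0.24 and Ndufs7 in complex I at 0.24. Ndufb3, an accessory subunit of complex I, was lowest of all at -0.57, with a median of 84.4 CPM in SNT and 104 CPM in control cells. Uqcrh, the hinge protein, was lowest in complex III at -0.23, Sdhd in complex II at -0.17, Cox8a in complex IV at -0.17 and Atp5sl in complex V at -0.45.

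The 10 members called in the pooled libraries were compared with the day 3 cells, which are other libraries of the same day. The 7 that rose had ratios above 0 in the cells, with Ndufs7, Sdhb and Cox5a as above, Atp5d at 0.29, Atp5b at 0.20, Uqcrc1 at 0.14 and Cox4i1 at 0.13. Of the 3 that fell, Atp5s was at -0.26 and Sdhd at -0.17, and Ndufs5 was at 0.00. At day 7, Cox5a stood at 0.58 and Cox4i1 at 0.29, while Uqcrc1 was at -0.41 and Atp5b at -0.02.

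In day 7 cells most members stood higher on the SNT side. The median log2 ratio of 76 members was 0.17, beside -0.07 over 9192 genes, and 55 of 76 were above 0, beside 43.4% of all genes. There were 4 members over 1.5-fold higher, beside 10% of all genes, and none over 1.5-fold lower, beside 11.1%. These counts were 7 and 0 with a size factor per side, 8 and 6 in cells with Nefh at or below its median, and 2 and 0 in cells above it. The share of all genes over 1.5-fold was not counted in these settings, and the 10% and 11.1% do not apply to them. Complex medians were 0.15 (I), -0.10 (II), 0.25 (III), 0.37 (IV) and 0.16 (V), and all 11 members of complex IV that passed were above 0. The member median was 0.17 in female cells and 0.19 in male cells, and 0.11 when medians over cells were used. Strain, segmental level, read length, sex and the level of Nefh differ between the days along with time, and their parts cannot be told apart.

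Atp5g3, one of the subunit c genes, had the highest ratio at 0.78. It ran from 117 over a median of 281 to 745 CPM in SNT cells and from 83.5 over 172 to 312 CPM in control cells. Atp5g1 stood at 0.20 and Atp5g2 at 0.14. With medians over cells Atp5g3 stood at 0.71, Atp5g2 at 0.14 and Atp5g1 at -0.19. Cox6c, a small membrane subunit of complex IV, followed at 0.76, with 137, 385 and 796 CPM in SNT cells against 112, 234 and 418 CPM in control cells. Ndufa3 in complex I was at 0.61 and Uqcr10 in complex III at 0.59. In each of these genes the ranges of the sides overlapped.

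Several core subunits stood lower at day 7. Uqcrc1 was lowest of all at -0.41, with 115, 375 and 953 CPM in SNT cells against 231, 557 and 878 CPM in control cells. Sdha was at -0.40 and Sdhd at -0.24, while Sdhb was at 0.05 and Sdhc at 0.17. Ndufa9, a complex I subunit near the quinone site, was lowest in its complex at -0.35. Cox7a2l was lowest in complex IV at 0.04 and Atp5sl in complex V at -0.21.

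**Figure D4:**
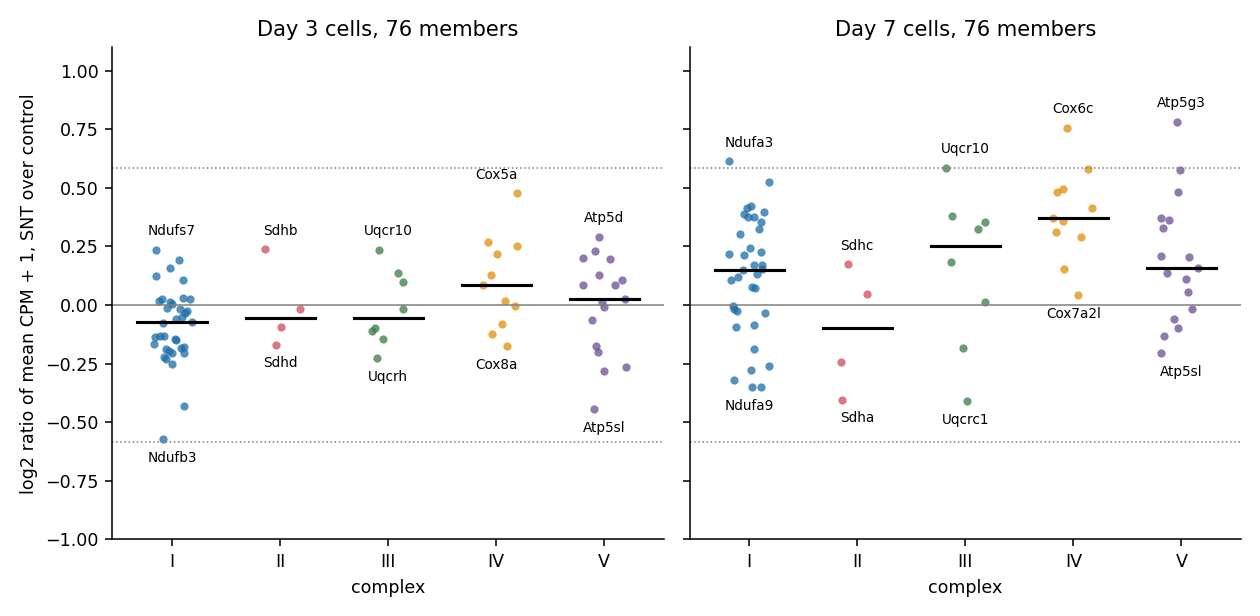
Log2 ratio of mean CPM + 1, SNT over control, for the 76 members that passed the filter at each day, by complex, with black lines at the medians and dotted lines at a 1.5-fold ratio. At day 3 no member passes the dotted lines, and at day 7 the 4 members above them are Atp5g3, Cox6c, Ndufa3 and Uqcr10.

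The day 7 ratio followed transcript length. The Spearman correlation between ratio and length across the 76 members was -0.68, a description across genes of the same cells, and it was -0.25 at day 3 and -0.17 across the 77 members of the pooled libraries. The 22 members of up to 600 bases had a median of 0.38 at day 7, and 20 of them were above 0. The 25 members between 600 and 1000 bases had 0.23, the 23 between 1000 and 2000 bases -0.02, and the 6 longer ones -0.16. Within complexes the Spearman correlation was -0.61 in complex I (36 members), -0.55 in complex IV (11) and -0.78 in complex V (17).

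The 83 other genes of up to 600 bases had a median of 0.21 at day 7. Other genes had medians of -0.03 between 600 and 1000 bases, -0.21 between 1000 and 2000 bases and -0.04 above that. Over all 8970 other genes the Spearman correlation was 0.22, opposite in sign to that of the members. The Spearman correlation across the members was -0.56 in female cells and -0.71 in male cells. Among cells with Nefh above its median over the day (2762 CPM) it was -0.45, and among the rest -0.70. The part of transcript length in these ratios was not tested.

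**Figure D5:**
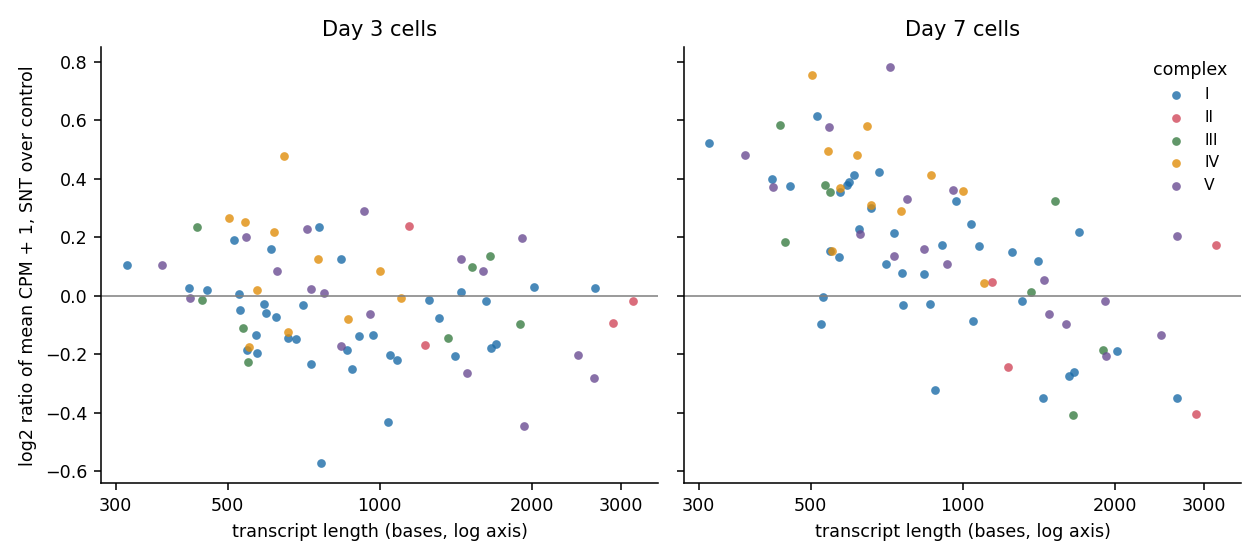
Log2 ratio of mean CPM + 1, SNT over control, against transcript length (bases, log axis) for the 76 members at day 3 (left) and day 7 (right), coloured by complex. At day 7 the members of up to 600 bases center on 0.38 and the 6 over 2000 bases on -0.16, while at day 3 the Spearman correlation with length is -0.25.

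The day 7 values differed between ranges of Nefh, whose mean was 3219 ± 2112 CPM in SNT and 2954 ± 1827 CPM in control cells. In cells with Nefh above its median, the sum of the members was 23703 ± 5891 CPM in 16 SNT cells and 19641 ± 2405 CPM in 7 control cells. In this range 69 of 76 members had ratios above 0, with a median of 0.28. In the 17 SNT and 7 control cells with Nefh at or below its median, the sums were 17444 ± 3655 and 17237 ± 4833 CPM. Here 44 members were above 0 and the median was 0.08. Complex I stood at 0.29 in the first range and at -0.05 in the second, complex II at 0.13 and -0.34, while complex IV stood at 0.45 and 0.42. These are ranges of 1 gene and no cell types, and 33 of the 47 cells lay within 2-fold of the limit. Only 12 of the 33 SNT cells of day 7 had Atf3 above the control range. The ranges were not split by Atf3, so these values do not describe cells known to be injured. Glial markers had a median sum of 1503 CPM in SNT and 5222 CPM in control cells of day 7, and their part was not tested.

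Genes of the pathway that the symbol rule misses were read beside the members. Usmg5, a small subunit of ATP synthase, rose in the pooled libraries from 114 ± 35.3 to 182 ± 40 CPM (SD, n = 3), a log2 change of 0.65 ± 0.20 with an adjusted p of 0.0106. Its ratio was 0.74 in day 3 cells and 0.89 in day 7 cells, over 1.5-fold on both days. Cyc1, the cytochrome subunit of complex III, Cycs, the cytochrome c that carries electrons to complex IV, and Atpif1, the inhibitor of reverse ATP synthase, were not called in the pooled libraries, and neither was Ndufab1, the acyl carrier protein in complex I.

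Lists of neighbouring functions were read beside the subunits in the pooled libraries, where 24.8% of all genes were called, 14% higher and 10.8% lower. Their median log2 changes were -0.16 (complex I assembly), 0.03 (assembly of complexes II to V), 0.04 (biogenesis), 0.11 (TCA cycle) and 0.11 (carriers), beside 0.04 for the members. Of 13 complex I assembly factors none rose and 1 fell, Ndufaf7, from 64.6 ± 11.4 to 41.5 ± 6.59 CPM (adjusted p = 0.0489). Of 26 assembly factors of complexes II to V, Cox19, a copper-handling factor, rose from 25.4 ± 6.28 to 63 ± 4.13 CPM (adjusted p = 0.000309), and Coa5 fell from 128 ± 24.6 to 82.6 ± 9.96 CPM (adjusted p = 0.0131). Of 16 genes of the TCA cycle and pyruvate dehydrogenase 2 rose and 1 fell, and of 10 genes of mitochondrial biogenesis none was called. Among 11 mitochondrial carriers and membrane proteins 2 rose and 1 fell.

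Glycolysis had more called genes than any other of these lists. Of its 17 genes tested 10 rose and 2 fell in the pooled libraries, beside 14% and 10.8% of all genes, with a median log2 change of 0.38. Pkm, pyruvate kinase, rose by 1.28 ± 0.11 (adjusted p = 4.94e-12) and Tpi1, triosephosphate isomerase, by 1.19 ± 0.13 (adjusted p = 1.95e-09), while Aldoc fell by 1.64 ± 0.15 (adjusted p = 1.41e-11). In cells the median ratio of the list was 0.16 at day 3 and -0.17 at day 7, beside -0.05 and -0.07 over all genes. Of its 16 genes 11 were above 0 at day 3 and 5 at day 7, beside 46% and 43.4% of all genes. At day 3, 2 were over 1.5-fold higher and 3 over 1.5-fold lower, beside 10.6% and 14.1% of all genes.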

How the data were processed

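Single-cell and pooled libraries were made by Smart-seq2 without molecular identifiers. The authors processed reads with CASAVA 1.8.2, aligned them with bowtie2 (build mm9 per the submitters' notes) and quantified RefSeq genes by RSEM, leaving ribosomal RNA out. The deposited tables are named TPM, but hold expected counts, since totals differ between libraries and 60.7% to 93.6% of values above 0 are whole (within 1e-09). All columns of values were used.

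Counts were scaled to a total of 1e+06 (CPM). Pooled libraries were rounded and tested with edgeR 4.0.16 in R 4.3.3 (quasi-likelihood, TMM, prior count 0.125, mean of at least 1 CPM, Benjamini-Hochberg over all genes), and their single-gene CPM are TMM-scaled. The script was tested on simulated data. DESeq2 1.42.0 was an alternative. The 3 libraries of a side are parts of 1 pool, so p-values measure technical spread. Cells were described in Python 3.11.15 by log2 ratios of mean CPM + 1, for genes whose mean reached 10 CPM. Figures were drawn with matplotlib 3.10.9. Outlier cells, and spike-ins, were left out of the main values. Intervals and limits cover counting error only, and a count of 0 is limited by 3 counts.

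Transcript lengths are medians over GENCODE M21 transcripts, and promoters are from RefSeq on GRCm38.p6. Named members were, per complex, up to 3 called rises and 3 called falls without overlap, the highest and lowest ratio per day, the Sdh genes and isoform sets. The members and lists were chosen with earlier results of these data known.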

Additional observations from a re-analysis of the deposited data

Results flagged for a closer look

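The median log2 ratio of complex I in single cells was -0.07 at day 3 and 0.15 at day 7, and that of complex III was -0.06 at day 3 and 0.25 at day 7. These medians had opposite signs on the 2 days. At day 7 complex I was at 0.015 with medians over cells and at -0.05 in cells with Nefh at or below its median. Complex III was at 0.12 and 0.22 under the same choices. The difference was not tested, since each side of a day is 1 sample. Strain, segmental level, read length and sex changed with the day. So did Nefh, with means of 336 CPM (SNT) and 438 CPM (control) at day 3 and of 3219 and 2954 CPM at day 7. The parts of these cannot be told apart.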

How the results depend on the processing

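No called member changed direction under any alternative, although the pooled member median turned from 0.04 to -0.12 with library size alone. In the pooled libraries, 10 members were called, and 5 to 14 when 1 library was left out, with 2 to 11 called higher and 0 to 3 lower and a member median between -0.11 and 0.17. Scaling by library size alone gave 3 higher and 8 lower, DESeq2 gave 1 lower, and a filter at 10 CPM gave 6 lower. Of all genes, 26% were called with library size alone (1507 higher, 2003 lower), 19.5% with DESeq2 and 32% with the filter. The share was 20.2% to 24.2% when 1 library was left out. The cause of these shifts was not tested. Pairing by library number (the replicate block) gave 8 higher and 3 lower, beside 24.1% of all genes called. Same-numbered libraries correlated at 0.06, -0.02 and -0.01 in their deviations, so the numbers pair nothing. In cells, the day 3 median turned from -0.02 to 0.026 with a size factor per side, and the day 7 median was 0.28 in cells with Nefh above its median, a choice made after seeing the data. All other settings kept both cell medians within 0.1 of the main value and on the same side of 0. Depth limits the pooled test, with totals down to 563462 counts.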

Other observations

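The 11 outlier cells, all of day 3, had lower totals, with a median of 412693 counts in the 7 SNT cells and 250190 in the 4 control cells. The summed level of the members was 12050 ± 1335 CPM in the 7 SNT outliers and ran from 10493 to 19896 CPM in the 4 control outliers.

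Ppargc1a, the coactivator known for driving mitochondrial biogenesis, was at 52 ± 33.7 CPM in SNT cells and 24.1 ± 16.2 CPM in control cells of day 7, a log2 ratio of 1.08. In the pooled libraries of day 3 it was at 32.3 ± 10.3 and 33.1 ± 5.4 CPM (n = 3 per side) and was not called. The 9 biogenesis genes that passed the filter at day 7 had a median log2 ratio of 0.01, with 5 above 0. Among them only Ppargc1a was over 1.5-fold higher, beside 10% of all genes, and Esrra was at 0.57. Ppargc1b, a biogenesis gene below the filter, had 11.4 ± 10.9 CPM in SNT and 4.71 ± 5.6 CPM in control cells, a log2 ratio of 1.11. In day 3 cells the ratio of Ppargc1a was 0.17.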
